A study of Rattus norvegicus with 34 samples.

Results

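The imprinted domain of distal rat chromosome 1 that carries H19, Igf2, Ins2, Th, Kcnq1 and Cdkn1c was followed in sperm through 1400 consecutive windows of 1 kb. The domain was chosen with earlier results of these data known. Within it the windows were taken by position, as all windows with a first base between 215500001 and 216899001 on chromosome 1 of the Rnor_6.0 build (chr1:215500001-216900000). They are 1400 of the 2782040 windows in the deposited tables, and the other 281364 windows of chromosome 1 served for comparison. Methylated DNA immunoprecipitation sequencing (MeDIP-seq) enriches DNA fragments with an antibody to methylated cytosine, so the signal of a window depends on its methylation and also on how many CpG sites it holds, on its copy number and on how well reads map there. Window signal is given as CPM, a window's counts divided by its library's total and put on a common scale, with edgeR's TMM factors over 18 libraries.

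The 18 libraries were sperm DNA pools from the cauda epididymis of outbred Sprague Dawley rats. The first 6 were F2 ifosfamide pools, from the F2 generation of a lineage whose F0 males had been given ifosfamide, an alkylating chemotherapy drug, at 8.5 mg/kg on days 26, 29 and 32 of age. Another 6 were F1 ifosfamide pools of the same lineage. The last 6 were F1 control pools, from a lineage whose F0 males had been given phosphate-buffered saline at 1.1 mL/kg on the same days. F1 and F2 males were not treated themselves. An F2 ifosfamide pool held 8 to 9 males and an F1 pool of either lineage 3 to 4. Generation and pool size thus cannot be told apart in any comparison that involves the F2 pools. F2 ifosfamide and F1 control pools also differed in lineage, so lineage, generation and pool size cannot be told apart between them. The labels give 43 F2 ifosfamide males, while 6 pools of at least 8 need 48. Nothing in the labels says that pools of a group share no litter. The p-values compare group differences with the spread between these pools and treat the pools as independent. They could be too small if pools share litters or males. A further 16 libraries in the labels, of F0 males and of F2 control pools, are not analysed here.

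Imprinted genes are expressed from only the maternal or only the paternal copy, according to methylation marks set in the germ line. In mouse, the control region between H19, a long noncoding RNA, and Igf2, a fetal growth factor, is methylated in sperm and unmethylated in oocytes. The control region of the Kcnq1 cluster, at the promoter of the noncoding RNA Kcnq1ot1, has the opposite mark, methylated in oocytes and unmethylated in sperm. It governs Cdkn1c, an inhibitor of the cell cycle, and Phlda2, which restrains placental growth. Ins2 encodes insulin, Th the rate-limiting enzyme of catecholamine synthesis and Kcnq1 a potassium channel subunit.

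RefSeq tables of the GRCr8 build gave 14 of 15 listed genes of the domain, in the order H19, Igf2, Ins2, Th, Ascl2, Tspan32, Cd81, Tssc4, Trpm5, Kcnq1, Cdkn1c, Slc22a18, Phlda2 and Nap1l4. Positions of that build cannot be set beside Rnor_6.0 windows, so no window below is assigned to a gene. RefSeq promoter sequences, each 300 bases around the annotated start, were available for 11 of the genes, with 12 promoters. The dinucleotide CG, the site that MeDIP reads when methylated, was counted in each (the letters CG read the same on both strands). It occurred 1 to 23 times per promoter, against a median of 7 over the 33469 promoters in the table, 94.5% of which held at least 1. The following 4 are shown because they span that range, from an imprinted promoter dense in CG to one nearly without it, and so show how much the amount of methylatable sequence varies inside the domain. Capitals mark CG.
Phlda2, 23 CG, chr1:208127192-208127491 of GRCr8, minus strand: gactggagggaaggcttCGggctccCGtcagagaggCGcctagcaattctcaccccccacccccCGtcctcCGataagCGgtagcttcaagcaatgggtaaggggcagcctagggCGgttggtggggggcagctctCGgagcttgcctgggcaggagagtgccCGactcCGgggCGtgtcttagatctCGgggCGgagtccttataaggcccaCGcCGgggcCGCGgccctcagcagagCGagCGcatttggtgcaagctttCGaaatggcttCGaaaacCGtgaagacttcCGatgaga
Igf2, 19 CG, chr1:207253931-207254230 of GRCr8, minus strand: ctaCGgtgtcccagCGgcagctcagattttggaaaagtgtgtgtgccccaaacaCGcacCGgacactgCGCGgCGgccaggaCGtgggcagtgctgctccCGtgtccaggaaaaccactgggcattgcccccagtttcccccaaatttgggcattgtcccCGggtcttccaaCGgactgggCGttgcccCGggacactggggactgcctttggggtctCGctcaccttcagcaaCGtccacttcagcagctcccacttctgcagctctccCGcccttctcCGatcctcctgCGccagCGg
Ascl2, 18 CG, chr1:207580807-207581106 of GRCr8, minus strand: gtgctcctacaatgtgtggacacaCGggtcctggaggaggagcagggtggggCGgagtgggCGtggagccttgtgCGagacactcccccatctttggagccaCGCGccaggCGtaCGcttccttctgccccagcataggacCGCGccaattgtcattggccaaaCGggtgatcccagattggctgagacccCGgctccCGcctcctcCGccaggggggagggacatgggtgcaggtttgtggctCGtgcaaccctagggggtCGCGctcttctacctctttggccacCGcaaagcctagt
Ins2, 1 CG, chr1:207273756-207274055 of GRCr8, minus strand: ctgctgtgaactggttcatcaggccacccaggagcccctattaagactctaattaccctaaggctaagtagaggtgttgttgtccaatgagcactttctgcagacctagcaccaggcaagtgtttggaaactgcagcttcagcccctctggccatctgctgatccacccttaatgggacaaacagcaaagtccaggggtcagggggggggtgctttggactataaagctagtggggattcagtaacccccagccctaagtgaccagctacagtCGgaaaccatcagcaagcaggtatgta
The Phlda2 promoter had more CG than 80.5% of all promoters and the Ins2 promoter more than 5.47%. The second Igf2 promoter in the table had 7. Ascl2 encodes a transcription factor of the trophoblast lineage.

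Library totals were 27424144 to 36309987 window counts in F2 ifosfamide pools, 25531658 to 39440265 in F1 ifosfamide pools and 23336048 to 34051679 in F1 control pools. The domain held 18065 to 23137 of these counts in F2 ifosfamide pools, 16439 to 24721 in F1 ifosfamide pools and 15336 to 21102 in F1 control pools. Its median window held 7 to 10 counts in F2 ifosfamide pools, 7 to 10 in F1 ifosfamide pools and 6 to 9 in F1 control pools. A single window is thus shallow, and 10 kb bins are given beside the windows. All 6 pools of each group entered every comparison.

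On average over the 6 pools, control sperm carried more MeDIP signal in the domain than on the rest of chromosome 1, by the mean and by the median of its windows. The domain averaged 0.454 ± 0.0132 CPM per window in F1 control pools, against 0.399 ± 0.00246 CPM on the rest of the chromosome (SD, n = 6). The ratio of both was 1.14 ± 0.0324 and lay above 1 in every control pool, from 1.10 to 1.18. The ratio of the medians was 1.16 ± 0.0932 (SD, n = 6), from 1 in control pool 6 to 1.29. Without the leading high stretch of the domain described below, with nothing left out elsewhere and chosen after its values were seen, the ratio of means was 1.02. Leaving out instead every window over 100 times the chromosome 1 median, also chosen after the values were seen, gave 1.22. The highest domain window had a control mean of 10.9 CPM, below that limit. Only windows outside the domain were therefore left out, which could only raise the ratio. Among 201 consecutive tiles of 1.4 Mb the domain ranked 42 by mean control signal and 72 by median control signal. The domain was therefore well inside the range of the chromosome in overall signal.

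Of the 1400 windows, 22 had no count in any of the 18 libraries (1.57%), compared with 14242 windows on the rest of chromosome 1 (5.06%). Without a genome of this build, a gap or unmappable sequence and an unmethylated window look alike. Among the 1378 windows with counts, 736 (53.4%) lay above the chromosome 1 median of 0.243 CPM. High windows, at or above the chromosome's 90th percentile of 0.857 CPM, numbered 173 (12.6%). Low windows, at or below its 10th percentile of 0.0519 CPM, numbered 115 (8.35%). The top end was fuller still: 24 domain windows (1.71%) reached 10 times the chromosome median, 2.43 CPM, against 2141 windows elsewhere on the chromosome (0.761%).

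**Figure D1:**
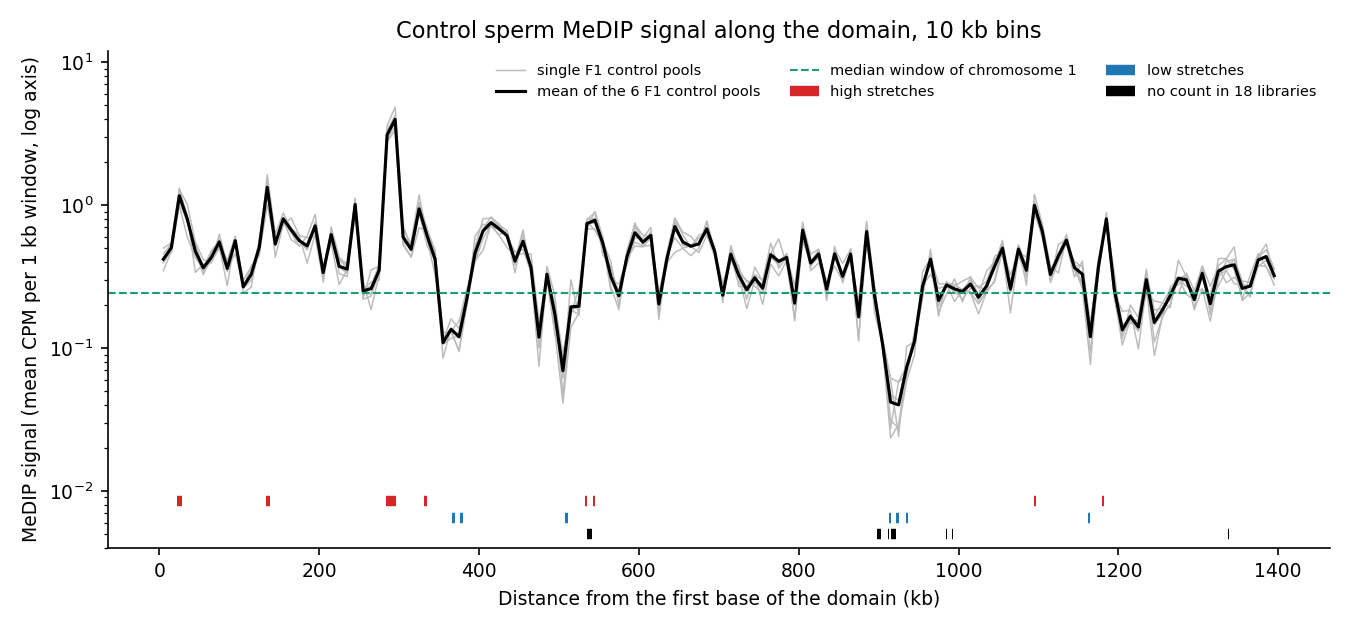
MeDIP signal of F1 control sperm in 10 kb bins (mean CPM per 1 kb window, log axis) against distance from the first base of the domain in kb, with grey lines for the 6 single pools and a black line for their mean. Coloured bars below mark the 8 high stretches, the 7 low stretches and the windows with no count. The highest point lies at the 12 kb stretch that begins 284 kb into the domain, and the lowest at the low stretches that begin 913 and 922 kb into it.

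Control signal was higher in the first 7 of the 14 segments of 100 kb, at 0.41 to 1.06 CPM per window, than in most of the last 7, at 0.181 to 0.422 CPM. By segment, control signal was highest at 215700001-215800000, with 1.06 ± 0.0803 CPM per window (0.98 to 1.21 over the 6 control pools), and lowest at 216400001-216500000, with 0.181 ± 0.00678 CPM (SD, n = 6). The plot of control signal by 10 kb bin shows the 6 pools on nearly the same course.

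The leading high stretch ran over 12 windows, chr1:215784001-215796000, and held 10.7% of all control signal of the domain. It averaged 5.85 ± 0.516 CPM per window in F2 ifosfamide pools, 5.22 ± 0.312 in F1 ifosfamide pools and 5.66 ± 0.68 in F1 control pools (SD, n = 6 each). Its edges were sharp in control sperm. The windows just before it held 0.738, 0.473 and 0.428 CPM, and those just after it 0.186, 0.571 and 0.149 CPM. Inside, control means were 2.19, 10.9, 5.79, 4.41, 1.30, 4.83, 6.79, 6.56, 6.93, 6.46, 9.51 and 2.24 CPM from first to last window. The stretch thus had a narrow peak in its second window, a dip to 1.30 CPM and a plateau of 4.83 to 6.93 CPM after it. A further peak of 9.51 CPM stood in the window before its last. All 6 of the domain's highest control windows were in it.

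The highest window of the domain, chr1:215785001-215786000, had 8.07, 10.3, 11.1, 11.4, 11.5 and 11.9 CPM in F2 ifosfamide pools 1 to 6. It had 9.76, 9.42, 9.51, 8.05, 11.9 and 8.96 CPM in F1 ifosfamide pools, and 8.69, 10.5, 13.7, 10.0, 12.0 and 10.2 CPM in F1 control pools. The 3 groups overlapped. Its log2 fold change against F1 control was -0.03 (SE 0.12, 95% interval -0.26 to 0.20, adjusted p = 0.967) for F2 ifosfamide and -0.19 (SE 0.12, interval -0.43 to 0.06, adjusted p = 0.824) for F1 ifosfamide, from the quasi-likelihood test of edgeR, Benjamini-Hochberg adjusted over all windows tested.

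The other 11 windows of the stretch gave the same picture. Over its 12 windows the log2 fold changes were -0.06 to 0.28 for F2 ifosfamide against F1 control, with a smallest adjusted p of 0.554, and the 95% intervals lay between -0.31 and 0.56. For F1 ifosfamide against F1 control they were -0.27 to 0.03, below 0 in 11 windows, with a smallest adjusted p of 0.686 and intervals between -0.52 and 0.36. The stretch was picked by the signal of the same control pools, which favours values below 0 against control. A read can be counted in adjacent windows, so the signs of the 12 windows are not independent in any comparison. No window of the stretch was called in either comparison. A change of 2-fold, which is 1 on the log2 scale, lay outside the interval of each of these windows. F2 ifosfamide against F1 ifosfamide gave 0.01 to 0.33, above 0 in all 12 windows, with a smallest adjusted p of 0.101.

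**Figure D2:**
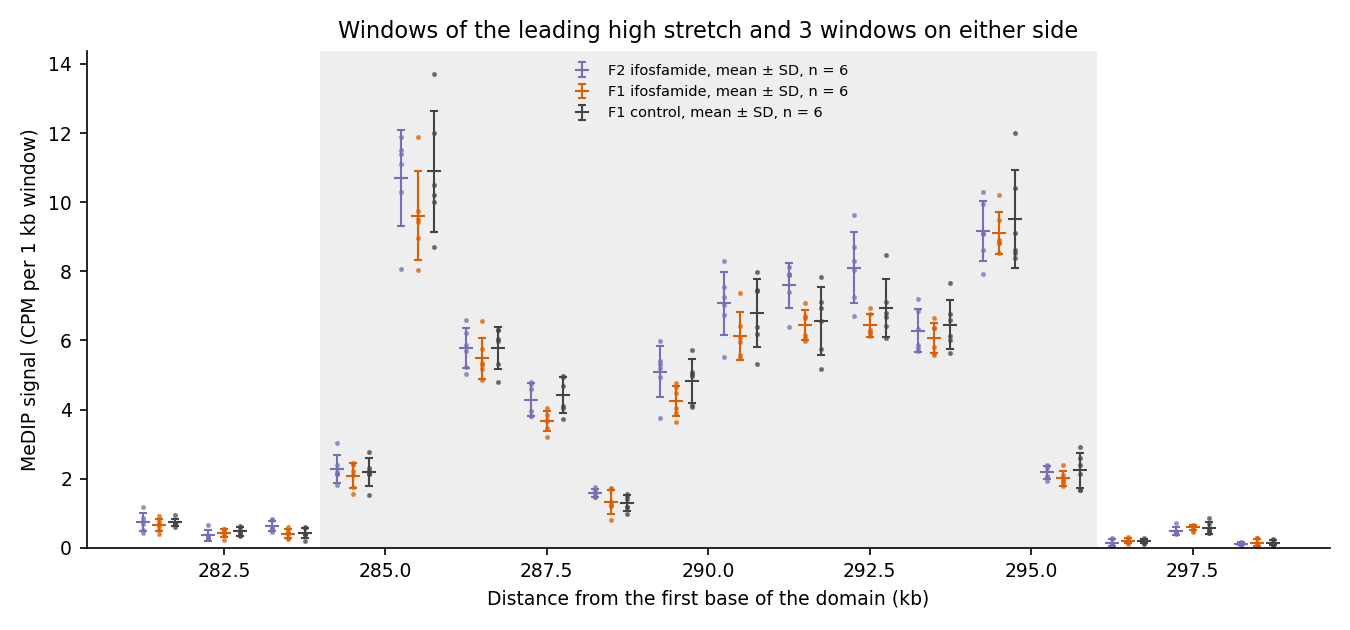
MeDIP signal (CPM) of each 1 kb window in the leading high stretch (grey background) and of 3 windows on either side, against distance from the first base of the domain in kb. Points are pools and bars show the mean ± SD over 6 pools of F2 ifosfamide, F1 ifosfamide and F1 control; the groups overlap in the highest window, where the control pools span 8.69 to 13.7 CPM.

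The next high stretches were shorter and lower. The second, chr1:215633001-215638000, had 5 windows and averaged 3.05 ± 0.499 CPM in F2 ifosfamide pools, 1.99 ± 0.524 in F1 ifosfamide pools and 2.31 ± 0.423 in F1 control pools. The third, chr1:215522001-215528000, had 6 windows and averaged 1.93 ± 0.107 CPM in F2 ifosfamide pools, 1.41 ± 0.304 in F1 ifosfamide pools and 1.58 ± 0.208 in F1 control pools. Both had higher means in F2 ifosfamide pools than in either F1 group, and ranges that overlapped.

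The next pair, chr1:216032001-216035000 and chr1:216042001-216045000, had 3 windows each and stood close to both ends of a run of 6 windows with no count, chr1:216035001-216041000. The first of the pair averaged 1.74 ± 0.145 CPM in F2 ifosfamide pools, 2.10 ± 0.343 in F1 ifosfamide pools and 2.07 ± 0.196 in F1 control pools. The other averaged 1.87 ± 0.221 CPM in F2 ifosfamide pools, 2.18 ± 0.18 in F1 ifosfamide pools and 1.85 ± 0.252 in F1 control pools. These high windows beside a run without reads did not share the direction of the second and the third stretch: the first of the pair was lowest on average in F2 ifosfamide pools. Of the 8 high stretches, the remaining 3 held 0.626% to 0.86% of control signal each.

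The 7 low stretches covered 25 windows. The longest, of 4 windows each, were chr1:216007001-216011000, chr1:216422001-216426000, chr1:215876001-215880000 and chr1:215866001-215870000. Their control signal was 0.0228 ± 0.0191, 0.0257 ± 0.0169, 0.0342 ± 0.0285 and 0.0397 ± 0.0224 CPM per window in that order (SD, n = 6). Over all 18 libraries they held 71, 48, 78 and 91 counts, which is too few for a fold change, and none of the 115 low windows passed the filter for testing. In each of the 4, the values of all 3 groups overlapped. A dense cluster of low and empty windows lay at 216398001-216437000, where 3 low stretches alternated with runs of 5 and 6 windows without a count and a single empty window.

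The summed signal of the whole domain lay between 592.3 and 679.8 CPM in all 18 pools. Its summed signal was 616.2, 648.1, 666.8, 676.5, 662.8 and 679.8 CPM in F2 ifosfamide pools, 637.3, 624.0, 592.3, 597.5, 656.8 and 593.9 CPM in F1 ifosfamide pools and 614.9, 627.6, 655.7, 657.3, 617.4 and 637.8 CPM in F1 control pools. The groups overlapped, with 4 F2 ifosfamide pools above every F1 pool and 3 F1 ifosfamide pools below every control. Against the rest of chromosome 1, the domain stood at 1.18 ± 0.0448 in F2 ifosfamide pools, 1.11 ± 0.0429 in F1 ifosfamide pools and 1.14 ± 0.0324 in F1 control pools. The 14 segments of 100 kb overlapped between groups in all 3 comparisons.

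In F1 ifosfamide against F1 control sperm, no domain window was called. The test was made in 620 of the 1400 windows, since the others did not reach the minimum count, and a window could pass on the counts of 1 group alone. The background over the genome was 0.0584% of windows called at an adjusted p below 0.05. The smallest adjusted p was 0.131, and log2 fold changes lay between -0.88 and 0.78. DESeq2's Wald test called no window either. At an unadjusted p below 0.05 there were 57 windows (9.19%), 19 higher and 38 lower, against 6.9% over the genome, 3.1% higher and 3.8% lower. The 95% interval excluded a 2-fold change either way in 593 of the 620 windows (95.6%), against 95.9% over the genome.

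Matched windows elsewhere on chromosome 1, weighted so that their mean signal was distributed as in the domain, had fold changes of a similar spread. The median log2 fold change of F1 ifosfamide against F1 control was -0.025 in the domain and -0.003 in matched windows. The spread, from the 10th to the 90th percentile, was 0.601 in the domain and 0.596 in matched windows. Among the 201 tiles the domain ranked 95 by that spread, 174 by its median log2 fold change and 187 by the log2 fold change of its total signal, counted from the highest. High windows had a median log2 fold change of -0.075 in the domain and -0.016 on the rest of the chromosome, and 16.2% and 9.29% of them had an unadjusted p below 0.05. With a minimum count of 30 the domain's median was -0.080. Variation among pools was also close: the median coefficient of variation was 24.2% in the domain and 23.4% in matched windows for F1 ifosfamide pools, and 24.9% and 24.2% for F1 control pools.

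The window with the smallest p among those lower in F1 ifosfamide was chr1:216145001-216146000. It had 5.12, 3.79, 2.09, 2.46, 2.32 and 2.00 CPM in F1 ifosfamide pools and 2.15, 5.26, 5.47, 5.49, 3.39 and 5.23 CPM in F1 control pools. F1 ifosfamide pool 1 was as high as the controls and control pool 1 as low as the F1 ifosfamide pools, so the groups overlapped (edgeR log2 fold change -0.59, SE 0.16, adjusted p = 0.191). Without F1 ifosfamide pool 1 the value was -0.81 with an adjusted p of 0.00222, and without control pool 1 it was -0.72 with an adjusted p of 0.00877. With F1 ifosfamide pools 1 and 2 summed as 1 sample it was -0.70 (adjusted p = 0.0401). These were the only 3 of 19 settings that called the window, and it stayed uncalled in 16. Over all settings, with edgeR or DESeq2, the log2 fold change was -0.81 to -0.49 and the adjusted p 0.00222 to 0.607. The window with the smallest p among those higher, chr1:216582001-216583000, had 1.11, 0.934, 1.31, 0.695, 0.959 and 0.847 CPM in F1 ifosfamide pools and 0.705, 0.331, 0.742, 0.514, 0.644 and 0.50 CPM in F1 control pools, again with overlap (0.77, SE 0.20, adjusted p = 0.131 by edgeR).

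In F2 ifosfamide against F1 control sperm, 2 of 548 tested windows were called, both higher, where the background was 0.027% of windows over the genome, 0.016% for higher windows. Lineage, generation and pool size all differed between these groups and cannot be told apart here. Both comparisons with F1 control use the same 6 control pools. At an unadjusted p below 0.05 there were 70 windows (12.8%), 49 higher and 21 lower, against 9.24% over the genome, 4.47% higher and 4.77% lower. Log2 fold changes lay between -0.70 and 0.79, and the interval excluded a 2-fold change in 533 of the 548 windows (97.3%), against 96.8% over the genome. The median log2 fold change was 0.038 in the domain and 0.005 in matched windows, and the spread was 0.667 in the domain and 0.607 in matched windows. By spread the domain ranked 12 of 201 tiles, higher than in the F1 comparison. High windows had a median log2 fold change of 0.051 in the domain and -0.018 on the rest of the chromosome. An unadjusted p below 0.05 was found in 23.1% and 11.8% of them. In windows between the high and low limits these shares were 8% and 8.54%. Both called windows were among the 173 high windows, against 17 called of 26677 high windows on the rest of the chromosome.

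The first called window, chr1:215636001-215637000, lies in the second high stretch. It had 1.94, 2.30, 2.62, 2.75, 3.17 and 2.58 CPM in F2 ifosfamide pools and 1.10, 1.68, 1.41, 1.67, 1.49 and 2.19 CPM in F1 control pools. The F2 pools were higher apart from an overlap of F2 pool 1 with control pool 6 (edgeR log2 fold change 0.67, SE 0.13, adjusted p = 0.0184). In the authors' deposited table it stood at 0.68 with an adjusted p of 0.0391. For F1 ifosfamide against F1 control its log2 fold change was -0.06 (SE 0.16, adjusted p = 0.976 by edgeR). The window before it, chr1:215635001-215636000, is not independent of it, since a read can be counted in adjacent windows, and had 0.47 (SE 0.12, adjusted p = 0.136 by edgeR).

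The second called window, chr1:216098001-216099000, had 3.59, 3.87, 4.52, 4.70, 4.16 and 4.23 CPM in F2 ifosfamide pools and 2.04, 2.58, 2.97, 3.34, 2.08 and 3.96 CPM in F1 control pools. Control pool 6 overlapped with the F2 pools (edgeR log2 fold change 0.57, SE 0.12, adjusted p = 0.0415). In the authors' deposited table it stood at 0.57 with an adjusted p of 0.112. Neither window held its call under all settings. Each was lost without F2 ifosfamide pool 3, 4, 5 or 6 and without control pool 1, 2, 3 or 5, taken out singly. The adjusted p over all settings was 0.00194 to 0.108 for the first and 0.00249 to 0.191 for the second. Without F2 ifosfamide pool 1, and without control pool 6, there were 4 called windows, with no share over the genome given for these fits. With DESeq2's Wald test no window was called.

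In bins of 10 kb, 0 of 140 bins were called in either comparison with F1 control, against a background of 0.067% for F1 ifosfamide and 0.0295% for F2 ifosfamide. F2 ifosfamide bins had log2 fold changes of -0.27 to 0.41, and their 95% intervals lay within -0.5 to 0.5 in 91.4% of bins, against 90.5% on the rest of the chromosome. F1 ifosfamide bins had -0.37 to 0.30, and 95% of intervals lay within those bounds, against 90.3%. Every interval lay within -1 to 1 in the domain, in both comparisons. At an unadjusted p below 0.05 there were 21 bins (15%) for F2 ifosfamide, against 9.01% over the genome, and 14 bins (10%) for F1 ifosfamide, against 6.81%. The smallest adjusted p was 0.0547 for F2 ifosfamide, at 215630001-215640000, which holds the second high stretch.

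**Figure D3:**
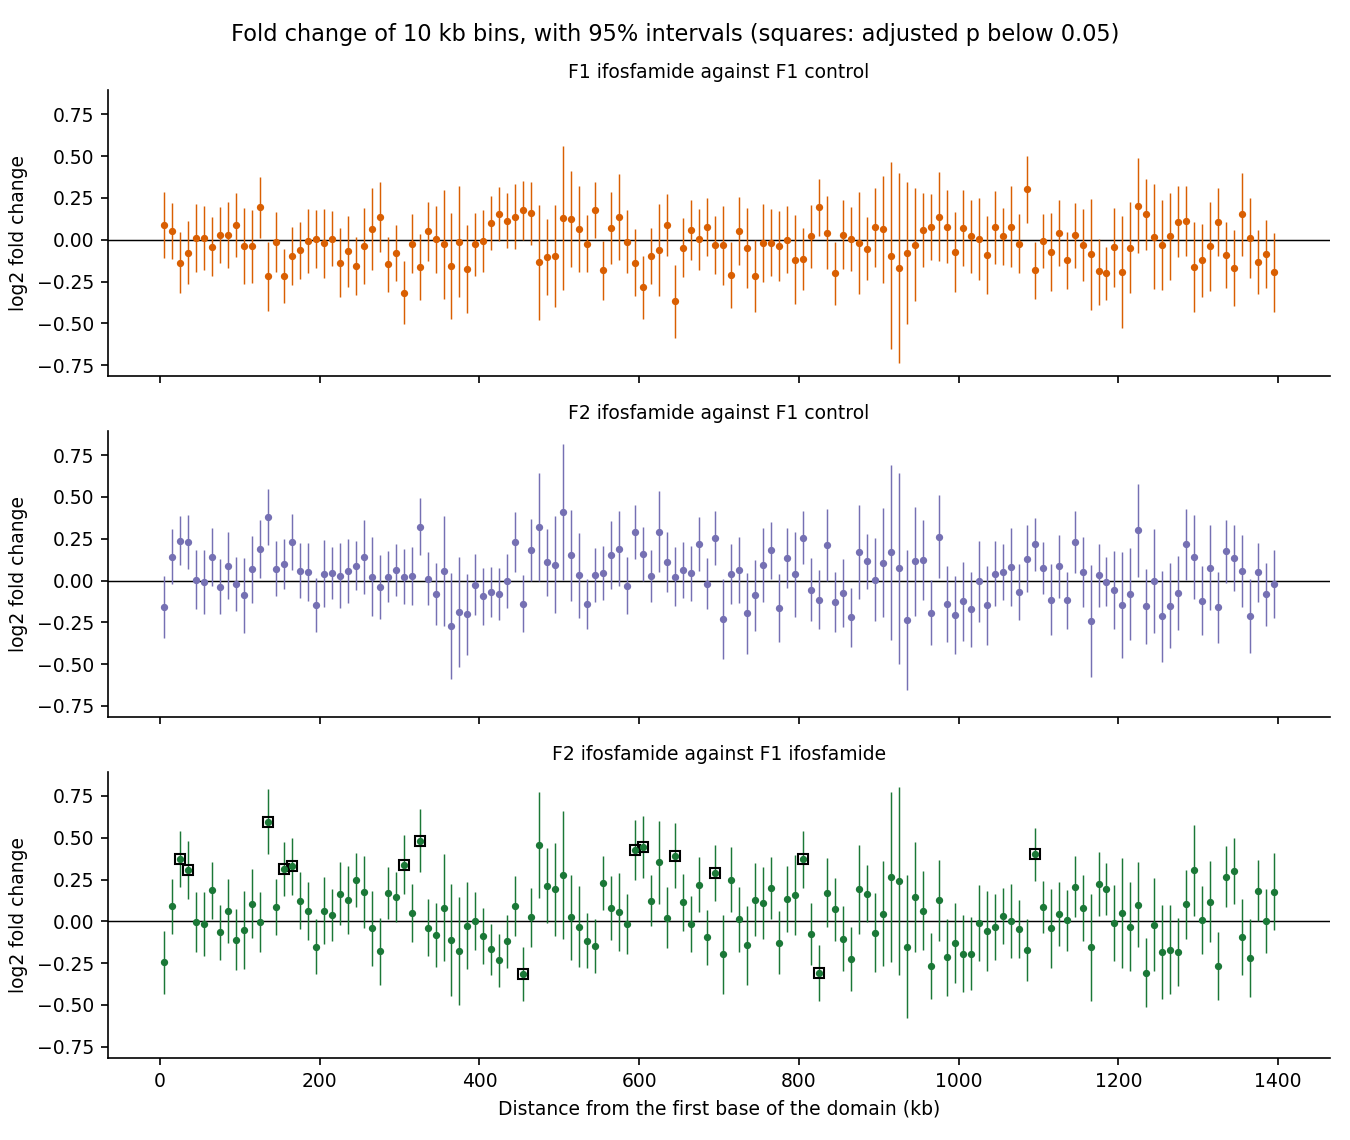
Log2 fold change of each 10 kb bin (points) with its 95% interval (lines) against distance from the first base of the domain in kb, for the 3 comparisons by edgeR. Squares mark bins with an adjusted p below 0.05: 0 in both comparisons with F1 control and 15 between F2 and F1 ifosfamide.

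The clearest differences in the domain were between the F2 and the F1 ifosfamide pools, where generation and pool size cannot be told apart. Of 626 windows tested, 38 were called (6.07%), where the background over the genome was 2.01% and matched windows gave 2.46%. The 38 comprised 33 higher and 5 lower windows, against a background of 1.18% higher and 0.836% lower, in 32 separate places when calls in the same direction whose starts were at most 2 kb apart were joined. At an unadjusted p below 0.05 there were 131 windows (20.9%), 92 higher and 39 lower, against 15.8% over the genome, 7.95% higher and 7.84% lower. The interval excluded a 2-fold change in 578 of the 626 windows (92.3%), against 93.1% over the genome. Log2 fold changes of the called windows were 0.48 to 1.02 for the higher windows and -0.67 to -0.50 for the lower ones.

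The share of tested windows called was higher in the domain than in any of the other 200 tiles, which had a median of 1.99% and a maximum of 5.43%. That maximum was the adjoining tile, chr1:216900001-218300000, with 35 of 645 windows called. The tile on the other side, chr1:214100001-215500000, had 14 of 518 (2.7%). Distant tiles came close to the maximum, with 5.35% at chr1:54500001-55900000, 5.33% at chr1:148300001-149700000, 5.16% at chr1:99300001-100700000 and 4.72% at chr1:25100001-26500000. By the number of windows called the domain ranked 2 of 201 tiles, with 38 against 40 at chr1:99300001-100700000. The share per tile was added after its values were seen, and the domain was chosen with earlier results known. Among high windows, 30 of 173 were called in the domain (17.3%), and 1303 of 26677 on the rest of the chromosome (4.88%). The median log2 fold change of these high windows was 0.129 in the domain and -0.006 elsewhere.

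**Figure D4:**
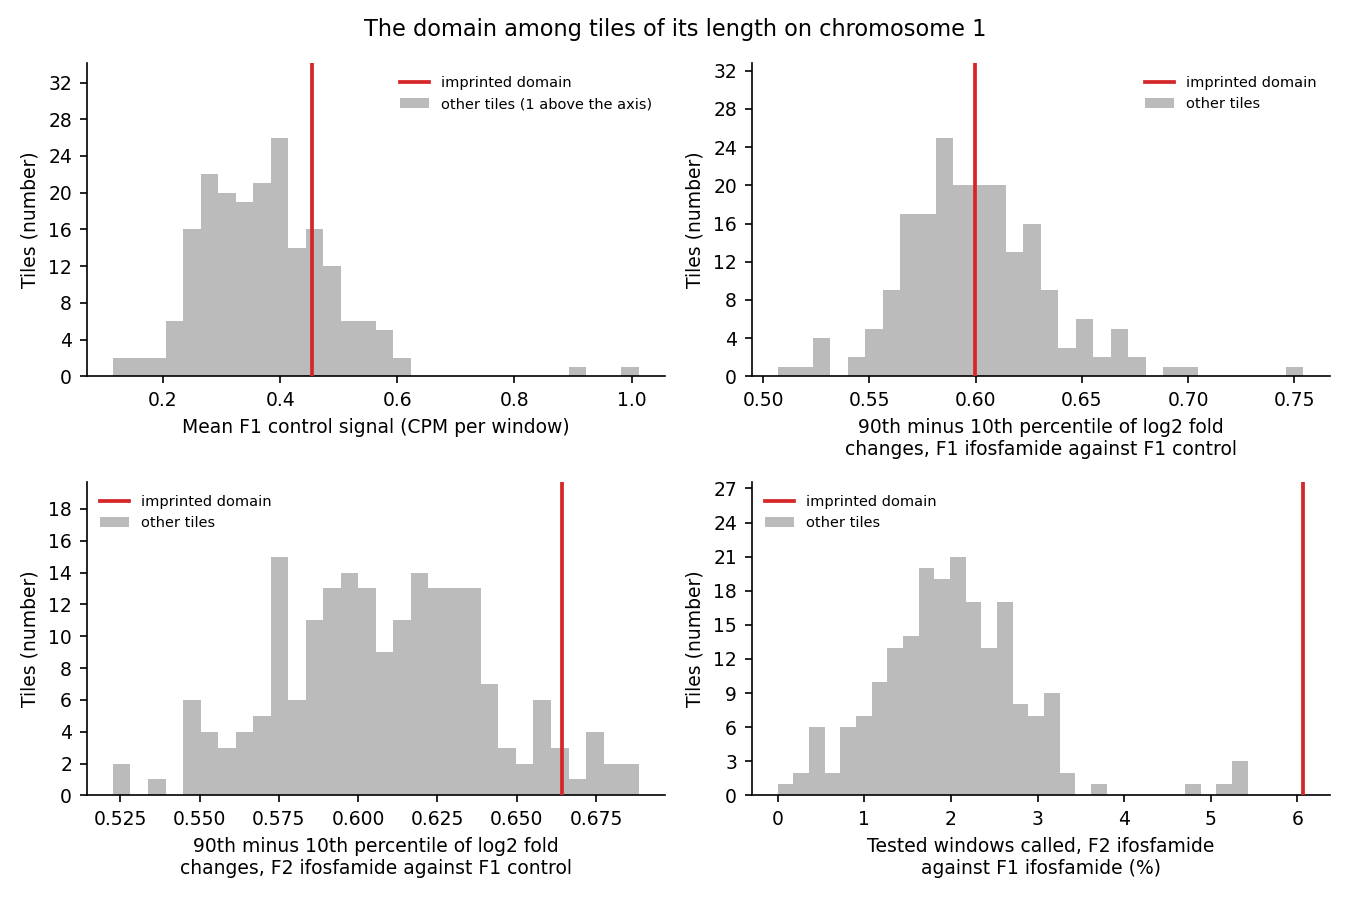
Position of the domain (red line) among the other 200 tiles of 1.4 Mb on chromosome 1 (grey histograms, number of tiles), for mean F1 control signal, for the spread of log2 fold changes in each comparison with F1 control, and for the percentage of tested windows called between F2 and F1 ifosfamide. The domain stands at 0.454 CPM, 0.600, 0.664 and 6.07%, and only the last lies beyond all other tiles. That last measure was added after its values were seen.

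Among the 38 windows, the F1 control mean lay between both ifosfamide means in 32 of the 33 higher and 4 of the 5 lower ones. The windows were chosen by the difference between the ifosfamide groups, so this place of the control mean is no separate evidence. Of the 38 windows, 9 were called under every setting tried, and all 9 were higher in F2 than in F1 ifosfamide pools. The same share is not given for called windows over the genome. The one with the smallest adjusted p was chr1:216098001-216099000, described above. Its 6 F2 ifosfamide values were 3.59 to 4.70 CPM, against 3.67, 2.15, 1.65, 1.83, 2.16 and 1.97 CPM in F1 ifosfamide pools, so that F1 ifosfamide pool 1 alone reached the F2 range (0.89, SE 0.13, adjusted p = 8.27e-06 by edgeR). Window chr1:216307001-216308000 had 2.27, 2.44, 2.59, 2.99, 2.63 and 2.69 CPM in F2 ifosfamide pools and 1.98, 1.82, 1.22, 1.36, 1.52 and 1.24 CPM in F1 ifosfamide pools, with no overlap (0.76, SE 0.14, adjusted p = 0.000302 by edgeR). Window chr1:215526001-215527000, in the high stretch at 215522001, had 2.90, 2.08, 2.68, 2.82, 2.33 and 2.30 CPM in F2 ifosfamide pools and 1.98, 2.07, 0.998, 1.25, 1.76 and 1.51 CPM in F1 ifosfamide pools (0.66, SE 0.14, adjusted p = 0.00323 by edgeR). The F2 pools stood above the F1 ifosfamide pools in both, though at 215526001 only by 2.08 against 2.07 CPM. F1 control pools averaged 1.87 CPM at 216307001 and 2.00 CPM at 215526001, between the means of both ifosfamide groups.

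Another of the 9 was chr1:216212001-216213000, with 1.26, 1.87, 1.38, 2.05, 1.46 and 1.40 CPM in F2 ifosfamide pools and 1.17, 1.16, 0.53, 0.869, 0.839 and 0.757 CPM in F1 ifosfamide pools (0.79, SE 0.16, adjusted p = 0.00238 by edgeR). These groups did not overlap. Means at this window were 1.57 CPM in F2 ifosfamide, 0.887 CPM in F1 ifosfamide and 1.39 CPM in F1 control pools. Against F1 control the log2 fold change was 0.17 for F2 ifosfamide and -0.62 for F1 ifosfamide (adjusted p = 0.766 and 0.24 by edgeR). The remaining 5 were 215634001 and 215636001 in the second high stretch, the adjacent pair 215825001 and 215826001, and 216594001 at the start of a shorter high stretch, named here by their first base. Their log2 fold changes were 0.62 to 0.73, and in all 5 F1 ifosfamide pool 1 overlapped with the F2 pools. F1 ifosfamide pool 2 overlapped with them too, except at 215636001. Of the lower windows, the one with the smallest adjusted p, chr1:215954001-215955000, had 1.75, 1.47, 1.73, 1.25, 1.42 and 1.82 CPM in F2 ifosfamide pools and 1.81, 1.92, 2.87, 2.64, 2.56 and 2.57 CPM in F1 ifosfamide pools (-0.59, SE 0.14, adjusted p = 0.00927 by edgeR).

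Single pools moved with these calls. Among the 33 higher windows, F2 ifosfamide pool 1 was the lowest F2 pool in 20, F1 ifosfamide pool 1 the highest F1 ifosfamide pool in 19, and control pool 1 the lowest control in 22. Over all 626 tested windows the same pools held those places in 23.6%, 20% and 20.4% of windows. In those 33 windows F1 ifosfamide pool 3 was lowest of its group in 15 (45.5%), against 19.8% of all 626 tested windows. Without F1 ifosfamide pool 3, 4 or 6 the count of 38 was 16, 21 or 25, and without F2 ifosfamide pool 3, 4 or 6 it was 19, 18 or 25. It was 49 without F1 ifosfamide pool 1 and 48 without F2 ifosfamide pool 1, and 27 to 40 without pool 2 or 5 of either group. DESeq2's Wald test called 19. Each of these settings was a separate fit over the whole genome. Its share of windows called over the genome is not given here, so these counts cannot be read as particular to the domain.

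In 10 kb bins, 15 of 140 were called between F2 and F1 ifosfamide (10.7%), with a background of 1.98%, and 13 of them were higher. The largest was 215630001-215640000 at 0.60 (adjusted p = 7.9e-05 by edgeR), the bin of the second high stretch. The leading high stretch had none: its bins at 284 to 296 kb in the plot of bin fold changes carry no square.

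**Figure D5:**
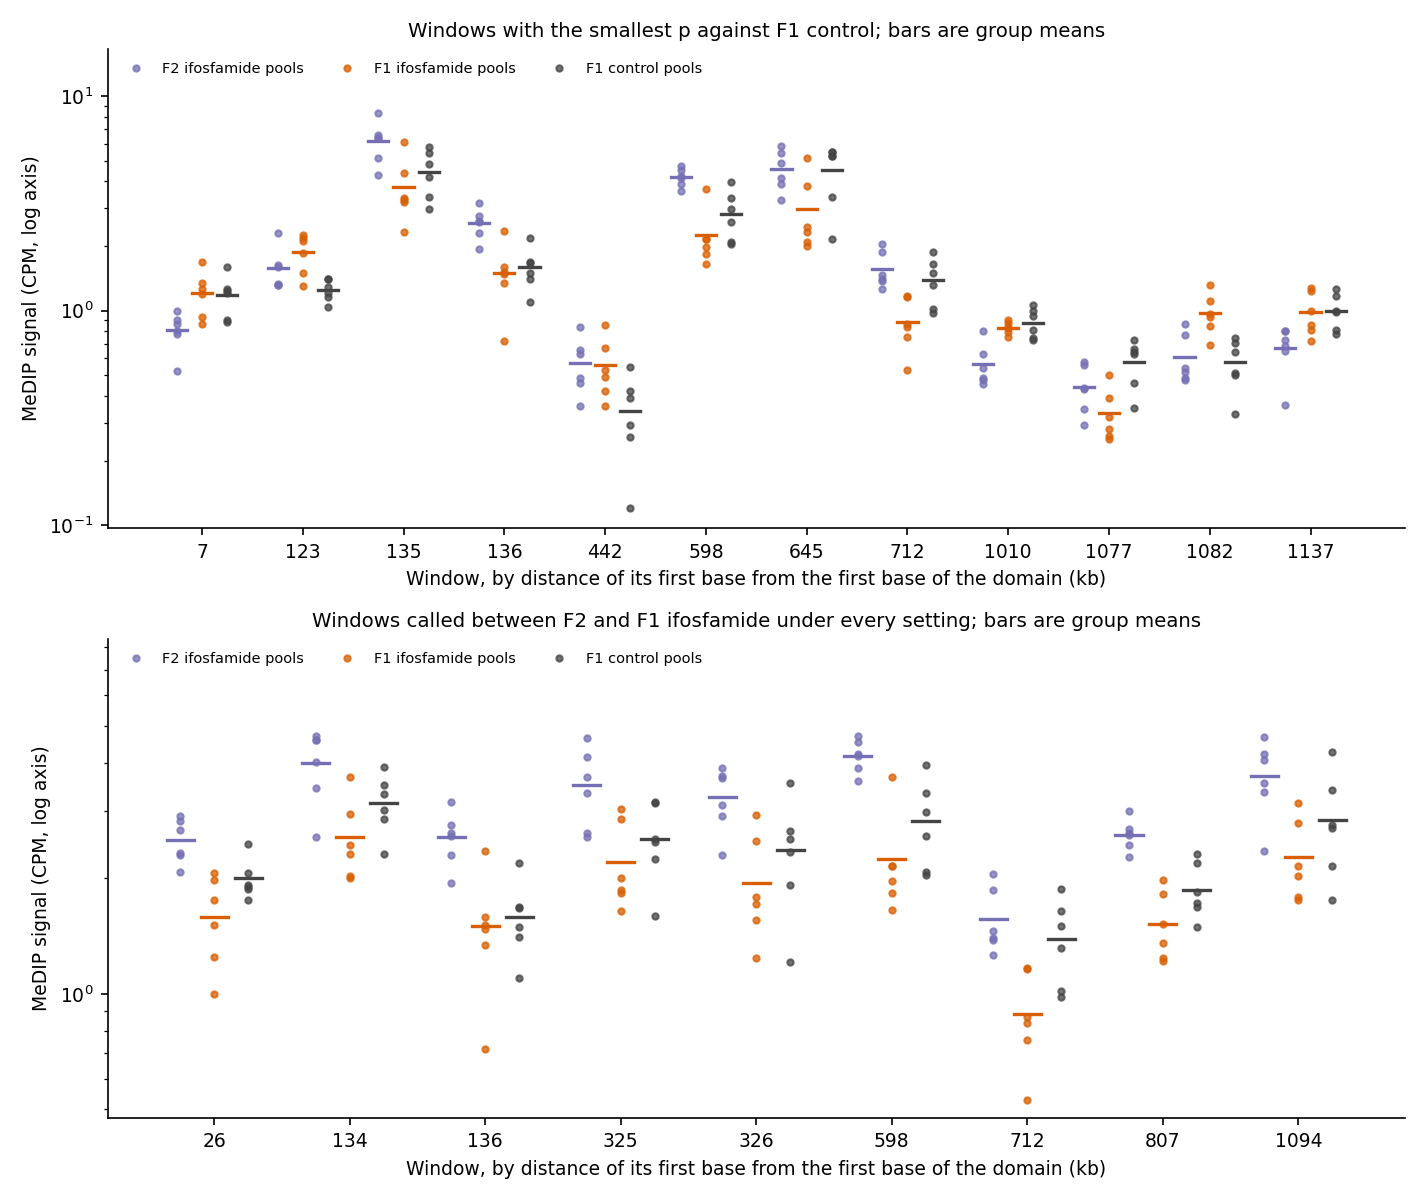
MeDIP signal (CPM, log axis) of single windows in each pool (points) with group means (bars), for the windows with the smallest p against F1 control (top) and the 9 windows called between F2 and F1 ifosfamide under every setting (bottom), named by distance from the first base of the domain in kb. At 598 kb the F2 ifosfamide pools lie at 3.59 to 4.70 CPM and 5 of the 6 F1 ifosfamide pools at 1.65 to 2.16 CPM.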

How the data were processed

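MeDIP-seq data of 18 rat sperm pools were used. The submitters' processing notes name the Rnor_6.0 build and the tools Bowtie2, edgeR, FastQC, SAMtools and Trimmomatic; tool versions were not given in sources used here. The authors' deposited tables hold read counts per 1 kb window and library, per the file headers. RPKM values deposited by the authors were used only to recover read numbers: a read fell in 1.16 to 1.25 windows on average. The authors' deposited log2 fold changes ran control over ifosfamide and were turned round; they and the authors' deposited p-values are quoted only where named.

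Each comparison was fitted here on the whole genome's counts with edgeR 4.0.16 in R 4.3.3 (TMM, filterByExpr with a minimum count of 10, two-sided quasi-likelihood test on 12 pools, no covariates). Adjusted p is Benjamini-Hochberg over all windows or bins tested, and called means below 0.05. DESeq2 1.42.0 was an alternative. TMM-scaled CPM is given as mean ± SD over 6 pools. High and low windows lie beyond the 90th and 10th percentiles of mean control CPM over chromosome 1 windows with counts, and a stretch is a run of at least 3. Matched windows were weighted in bins of 0.25 log2 CPM. Scripts were tested on simulated counts.

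The domain and its settings were chosen with earlier results of these data known. Named windows are the 6 with the highest control signal and, per comparison, every called window or, where under 3 were called in a direction, the 3 with the smallest p. The share of called windows per tile and the ranks of single pools were added after those values were seen. F1 ifosfamide pools 1 and 2 differed little (chi-square per degree of freedom 1.09 on the rest of chromosome 1, other pairs within groups 1.06 to 1.81), and a fit with both summed is among the alternatives.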

Additional observations from a re-analysis of the deposited data

Results flagged for a closer look

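In 38 windows the F2 ifosfamide pools differed from the F1 ifosfamide pools (edgeR, adjusted p below 0.05), a difference in which generation and pool size cannot be told apart. Windows are named by their first base on chromosome 1, and values are log2 fold changes of F2 over F1 ifosfamide. Higher in F2 ifosfamide pools along the first stretch of the domain were 0.66 at 215526001, 1.02 at 215539001, 0.62 at 215561001, 0.62 at 215634001, 0.69 at 215635001, 0.73 at 215636001, 0.58 at 215639001, 0.59 at 215659001, 0.48 at 215663001, 0.89 at 215725001 and 0.51 at 215744001. Further along, the higher windows were 0.67 at 215808001, 0.62 at 215809001, 0.64 at 215825001, 0.70 at 215826001, 0.95 at 215968001, 0.81 at 215973001, 0.90 at 216031001, 0.89 at 216098001, 0.93 at 216101001, 0.52 at 216105001 and 0.64 at 216106001. Towards its end they were 0.61 at 216145001, 0.79 at 216212001, 0.65 at 216265001, 0.52 at 216284001, 0.76 at 216307001, 0.61 at 216308001, 0.68 at 216594001, 0.55 at 216600001, 0.90 at 216641001, 0.67 at 216832001 and 0.57 at 216844001. Lower in F2 ifosfamide pools were -0.50 at 215691001, -0.59 at 215954001, -0.64 at 216465001, -0.67 at 216582001 and -0.67 at 216822001. The adjusted p of these windows was 8.27e-06 to 0.0487, and 29 of them lost the call under at least 1 setting.

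Single pools stood far from the other 5 of their group in 11 of 225 groups of values examined. Chance alone gives about 1 in 20, so the number of such pools was near that share. In the segment 216600001-216700000 F1 ifosfamide pool 5 had 0.441 CPM per window, with the next at 0.40. F2 ifosfamide pool 6 was the highest of its group at windows 215623001 (2.3 CPM), 215659001 (1.78 CPM) and 215973001 (0.873 CPM). F2 ifosfamide pool 5 was the lowest at 216637001 (0.365 CPM), and F2 ifosfamide pool 2 the highest in the low stretch 216422001-216426000 (0.0538 CPM). F1 ifosfamide pool 1 was the highest at 216098001 (3.67 CPM), pool 5 at 215968001 (0.40 CPM) and pool 4 in the low stretch 216007001-216011000 (0.0869 CPM). Control pool 1 was the lowest at 216106001 (0.939 CPM) and control pool 6 the highest at 216265001 (2.0 CPM).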

How the results depend on the processing

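For F1 ifosfamide against F1 control the count of 0 called windows became 1 with F1 ifosfamide pools 1 and 2 summed, and was 0 to 1 when single pools were left out. For F2 ifosfamide against F1 control the count of 2 became 1 with a minimum count of 30 and 0 with DESeq2. It was 0 to 4 when single pools were left out. In bins of 20 kb, 1 of 70 was called, where the background over the genome was 0.0471%. In bins of 10 kb it was 0 of 140, where the background was 0.0295%. For F2 against F1 ifosfamide the count of 38 became 19 with DESeq2 and 16 to 49 when single pools were left out. In bins of 20 kb, 9 of 70 were called, where the background over the genome was 2.42%. In bins of 10 kb it was 15 of 140, where the background was 1.98%. Pool numbers did not pair the samples (correlations of same-numbered deviations -0.145 to 0.0784, with 0, 3 and 0 of 6 pools closest to their own number). With the replicate block 0 windows were called for F1 ifosfamide against control, 3 for F2 ifosfamide against control and 25 for F2 against F1 ifosfamide. For the alternative window fits the share called over the genome is not given. Their changes in count thus cannot be read as particular to the domain.

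With a minimum count of 30 the median log2 fold change of domain windows was -0.080 for F1 ifosfamide against F1 control and 0.140 for F2 against F1 ifosfamide. The spread over that of matched windows was 1.01, 1.10 and 1.09 for F1 against control, F2 against control and F2 against F1 ifosfamide; it was 0.966 and 1.05 without a filter in both comparisons with control, and 1.33 with a minimum count of 30 in the last. Leaving out single pools gave 0.974 to 1.05, 1.01 to 1.10 and 1.04 to 1.12, so that only for F1 ifosfamide against control did the spread lie above or below that of matched windows by setting. The control ratio of 1.14 was 1.10 without empty windows, 1.02 without the leading high stretch and 1.22 without windows over 100 times the chromosome median, the last 2 added after the data were seen. No domain window was over that last limit. High stretches numbered 4 at the 95th percentile and 3 with runs of at least 5, in place of 8; low stretches 1 at the 5th percentile and 0 with runs of at least 5, in place of 7. For single named windows 706 repeats kept the call or lack of it, 202 lost a call and 6 gained one. Depth of 6 to 10 counts in the median window left low windows untested.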
